A study of Mus musculus with 10 samples.

Results

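The genes of the voltage-gated sodium and calcium channels were examined in microglia sorted from mouse brain and in bulk brain tissue. The members were the protein-coding genes of the deposited count table whose symbol is Scn followed by a number and a or b, or begins with Cacn. There were 40 such genes among 56748 in the table, 14 for sodium and 26 for calcium channels. The microglia group held 5 samples of 400000 CD11b-positive sorted cells, and the bulk brain group held 5 hemi brains in which no cell type had been selected. All mice were young C57BL/6 males without a named treatment, allele or agent, the same in both groups, and ages in weeks were not stated. The labels name neither the animals behind each sample nor any pooling, so p-values cover the spread among these libraries alone, and part of it may be technical. The comparison asks which channel transcripts microglia hold themselves, beside a tissue in which neurons are known as their main source. CD11b also marks other myeloid cells. All microglia samples were sorted and the bulk brain samples were not, so cell type cannot be told apart from effects of cell preparation. The microglia libraries held 25087489 to 28514509 counts each, the bulk brain libraries 25845049 to 34709215.

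Voltage-gated channels open when the membrane depolarises and give excitable cells their action potentials and their calcium entry. A sodium channel is built from 1 large α subunit, which forms the pore, and small β subunits that also act as adhesion molecules. A high-voltage-activated calcium channel joins a pore-forming α1 subunit to an extracellular α2δ subunit and a cytosolic β subunit, and most γ subunits of brain instead serve AMPA-type glutamate receptors, as transmembrane AMPA receptor regulatory proteins (TARPs). Microglia do not fire action potentials and are usually described as holding little voltage-gated sodium or calcium current.

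Of the 40 genes, 36 passed the filter on low counts and were tested, and 33 of them were lower in microglia, 1 (Cacna1d) was higher and the call of the other 2 (Scn11a and Cacna1f) missed the threshold (edgeR quasi-likelihood test, Benjamini-Hochberg adjusted p under 0.05 over all genes tested). Across the 18969 genes tested, 43.9% were lower and 37.2% higher, and 81% were called in either direction. The median log2 difference, microglia minus bulk brain, was -8.60 over the 36 members and -0.14 over all genes tested. Every microglia library lay below every bulk brain library for 32 members, a separation that 40.5% of all genes tested showed, and above for 1 member, as 34.2% of all genes did. A member that is lower in this comparison may be lower because fewer cells of the type that transcribes it were present or because each cell held less of its RNA, and bulk samples cannot tell these apart.

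Counts of 4 genes made up nearly all of the calcium channel counts in microglia. Cacna1d, Cacnb2, Cacna1a and Cacnb1, the calcium channel genes with at least 5 CPM there, held 94.7% ± 0.62 of the summed CPM of the 26 calcium channel genes in microglia but 15.7% ± 0.30 in bulk brain (SD over 5 libraries). CPM are counts relative to library size, scaled for library composition with edgeR's TMM factors. The set of 4 was chosen after their values were seen, by their level in microglia. These are shares of counts and were not taken per unit of length. The other 22 calcium channel genes stood at 1.68 CPM or less. Of all 40 members, 31 stood under 1 CPM and 4 had no count in any microglia library. Summed, the calcium channel genes reached 145 to 158 CPM in the microglia libraries against 1743 to 2913 CPM in bulk brain, or 6.29% ± 0.22 of the bulk level (SD, n = 5). The 12 sodium channel genes described below, which are not all of the 14, summed to 1.63 to 3.02 CPM against 1075 to 2083 CPM, or 0.138% ± 0.035. This is not the level of all sodium channel genes. It cannot be set against the calcium channel sum, which covers all 26 genes.

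**Figure D1:**
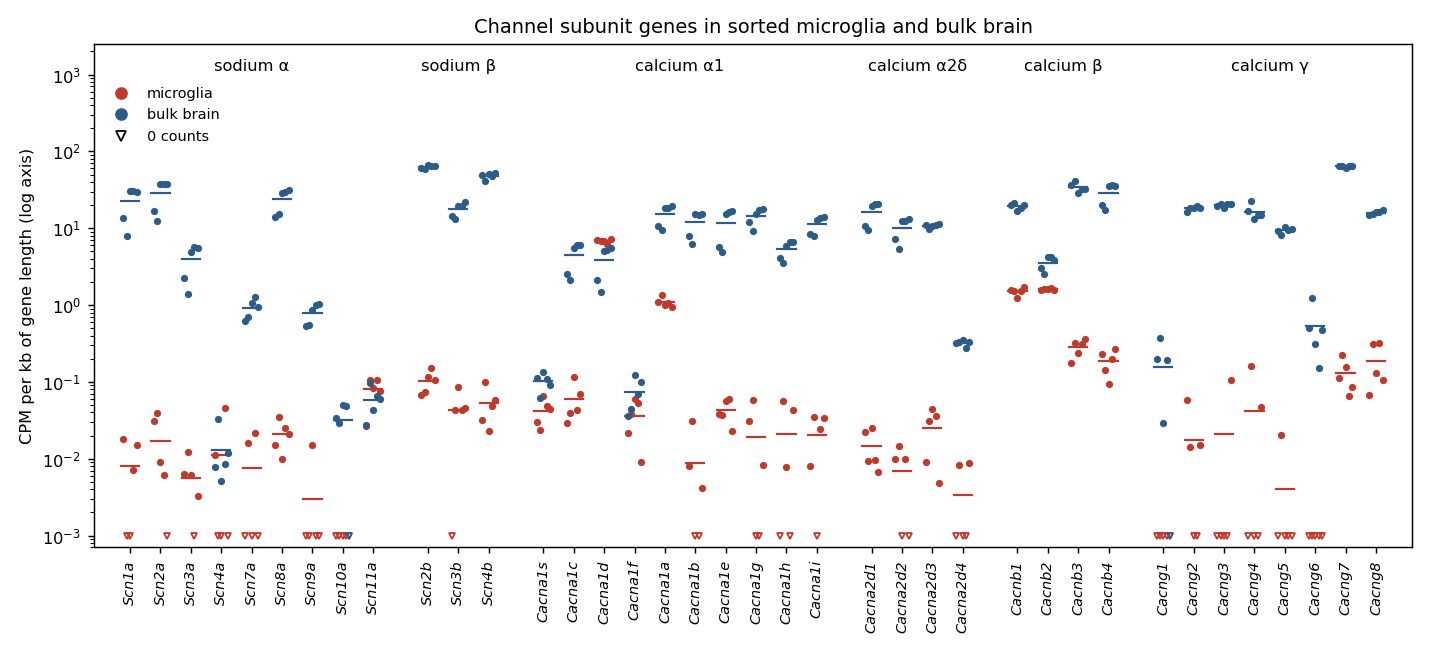
Level of 38 channel genes in CPM per kb of gene length on a log axis, for 5 microglia libraries (red) and 5 bulk brain libraries (blue), with the mean as a line and open triangles at the foot for libraries with 0 counts. Cacna1d is the gene whose microglia points all lie above bulk brain, and Cacna1a, Cacnb1 and Cacnb2 have the next highest means in microglia among the genes drawn.

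Cacna1d, which encodes the pore of the L-type channel Cav1.3, a channel that opens at comparatively negative voltages, was the only member called higher in microglia, and its call was fragile. The gene lies on the minus strand of chromosome 14 from 29761896 to 30213412 (ENSMUSG00000015968, GRCm39). Its level was 105, 103, 103, 95.3 and 109 CPM in microglia replicates 1 to 5. In bulk brain it was 32.5, 22.6, 75.8, 79.2 and 85.1 CPM in replicates 1 to 5. Every microglia library was above every bulk brain library, and bulk brain replicates 1 and 2 lay far below replicates 3 to 5. The means were 103 ± 4.98 CPM and 59.1 ± 29.1 CPM (SD, n = 5 each). The log2 difference was 0.81 ± 0.32 (SE, edgeR adjusted p = 0.035). The difference was positive under all 20 alternatives, from 0.21 to 1.81, but 12 of them put the adjusted p above the threshold (range 1.5e-06 to 0.17). These were median-of-ratios scaling, library size alone, no filter on low counts, DESeq2, and leaving out any 1 of microglia replicates 1, 2, 3 and 5 or of bulk brain replicates 1 to 4. Without bulk brain replicate 1 the log2 difference was 0.51 (edgeR adjusted p = 0.17), without bulk brain replicate 2 it was 0.46 (0.084), and against bulk brain replicates 3 to 5 alone it was 0.21 (0.0048).

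The RefSeq table lists 2 start sites of Cacna1d, and the upstream sequences are shown because gene counts do not show from which of them the microglial transcripts came. The 250 bases before each start differ in composition, with 39.6% G and C at the first and 86.4% at the second. The N-type pore gene Cacna1b, with 1 listed start and 72% G and C, is given for comparison as a gene that was nearly absent from microglia. The letters in capitals mark the E-box CAGCTG, the GC box GGGCGG and its reverse complement, where matches that overlap form 1 run. Sequences are from RefSeq on GRCm38.p6, which is not the build of the counts, and read 5′ to 3′ along the gene.
Cacna1d start 1, chr14:30491157-30491406, minus strand: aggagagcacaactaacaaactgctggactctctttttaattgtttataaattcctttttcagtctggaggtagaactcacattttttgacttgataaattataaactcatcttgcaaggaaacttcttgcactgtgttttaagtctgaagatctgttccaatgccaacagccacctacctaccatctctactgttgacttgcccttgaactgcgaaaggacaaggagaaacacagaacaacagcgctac
Cacna1d start 2, chr14:30353487-30353736, minus strand: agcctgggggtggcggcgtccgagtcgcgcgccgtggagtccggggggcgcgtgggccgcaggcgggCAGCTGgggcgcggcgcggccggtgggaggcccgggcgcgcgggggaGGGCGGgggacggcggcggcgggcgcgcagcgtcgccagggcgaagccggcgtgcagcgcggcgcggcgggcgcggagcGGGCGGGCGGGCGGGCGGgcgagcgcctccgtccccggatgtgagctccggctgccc
Cacna1b, chr2:24763153-24763402, minus strand: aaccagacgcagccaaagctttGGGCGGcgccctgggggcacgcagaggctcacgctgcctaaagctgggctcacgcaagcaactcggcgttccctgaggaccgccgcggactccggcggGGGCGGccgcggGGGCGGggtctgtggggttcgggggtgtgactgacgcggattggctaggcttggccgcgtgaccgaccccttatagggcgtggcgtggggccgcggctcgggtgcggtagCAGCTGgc
The first Cacna1d window held neither motif, the second held 1 E-box and 5 GC boxes, and the Cacna1b window held 1 E-box and 3 GC boxes. Searched on both strands, the E-box stood in 13% and the GC box in 32.7% of all 32851 windows of this length, and in 11 and 15 of the 41 windows of the 30 members that matched the table by symbol. GAGGAAGT, the motif of the myeloid factor PU.1, stood in none of the 41 member windows and in 2.44% of all windows. Its absence from so few windows is near that general share and is no result about the members.

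The other L-type genes behaved differently from Cacna1d. Cacna1c, which encodes Cav1.2, the main L-type pore of heart, smooth muscle and many neurons, stood at 0.636, 0.853, 2.51, 0.955 and 1.54 CPM in microglia and at 56.2, 47.1, 122, 134 and 131 CPM in bulk brain. The groups did not overlap, with replicate 3 the highest in microglia, and the log2 difference was -6.23 ± 0.47 (SE, edgeR adjusted p = 1.5e-07). The ratio of Cacna1d to Cacna1c within a library does not depend on scaling. Its log2 was 6.49 ± 0.77 in microglia and -0.78 ± 0.16 in bulk brain (SD), a difference of 7.27. An exact two-sided permutation test over 252 splits gave p = 0.0079, the smallest that 5 against 5 can give. It was also 0.0079 adjusted over 2 pairs of members. These pairs were chosen after their values were seen and the adjustment does not cover that choice, so the p-value adds no support. Cacna1s, the pore gene of the skeletal muscle channel, was low in both groups, at 0.278 ± 0.11 CPM against 0.667 ± 0.18 CPM (SD, n = 5), and its log2 difference of -1.25 (edgeR adjusted p = 0.0065) was lost against bulk brain replicates 1 and 2 alone (-1.12, adjusted p = 0.097; 8.7e-04 to 0.097 over the alternatives). Its groups overlapped. Cacna1f, the retinal L-type gene, stood at 0.330 ± 0.19 CPM against 0.679 ± 0.34 CPM and did not pass the threshold (log2 difference -1.02, edgeR adjusted p = 0.081), but passed it under 6 of 20 alternatives, all in the same direction. Cacna1s and Cacna1f held 35 and 42 counts over the microglia libraries.

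Cacna1a was the second α1 gene of microglia and had the highest mean CPM per kb of the α1 genes in bulk brain, although Cacna1g stood above it in bulk brain replicate 1. It encodes the P/Q-type pore Cav2.1, which drives transmitter release at many synapses, and lies on chromosome 8 from 85065268 to 85366875 (plus strand, GRCm39). Its level was 13.6, 16.7, 12.4, 13.1 and 11.5 CPM in microglia and 130, 116, 226, 223 and 238 CPM in bulk brain. All microglia libraries were below all bulk brain libraries, 13.9-fold on average, with a log2 difference of -3.80 ± 0.23 (SE, edgeR adjusted p = 2.4e-08). The other pores of synaptic terminals were far lower. Cacna1e, the R-type gene, stood at 0.954, 0.931, 1.43, 1.51 and 0.584 CPM in microglia and at 144, 124, 383, 416 and 419 CPM in bulk brain, without overlap (log2 difference -8.09). Cacna1b, the N-type gene, had the largest fall of the α1 genes (-10.34 ± 0.58 SE, edgeR adjusted p = 1.0e-08), with 2, 8, 0, 0 and 1 counts in the microglia libraries and 77.8, 61.8, 153, 148 and 152 CPM in bulk brain. The low-voltage-activated T-type genes Cacna1g, Cacna1h and Cacna1i, whose channels support burst firing and pacemaking, had log2 differences of -9.49, -7.95 and -9.11 and held 25 or 26 counts each over the microglia libraries.

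Per unit of length, the mixture of α1 genes had a different leading gene in each group. Cacna1d made up 83.5% ± 2.12 of the summed α1 CPM per kb in microglia but 4.69% ± 0.98 in bulk brain (SD over 5 libraries). Cacna1a made up 13.4% ± 1.79 and 19.6% ± 0.97, so that the other 8 α1 genes together held only small shares in microglia, the largest of them Cacna1c at 0.730% ± 0.42. In bulk brain, Cacna1a, Cacna1g, Cacna1b, Cacna1i and Cacna1e each held between 14.2% and 19.6% on average. Neighbours in that order overlapped over the libraries except Cacna1g (from 16.5%) and Cacna1b (up to 16.3%). These shares describe the transcripts and were not tested.

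**Figure D2:**
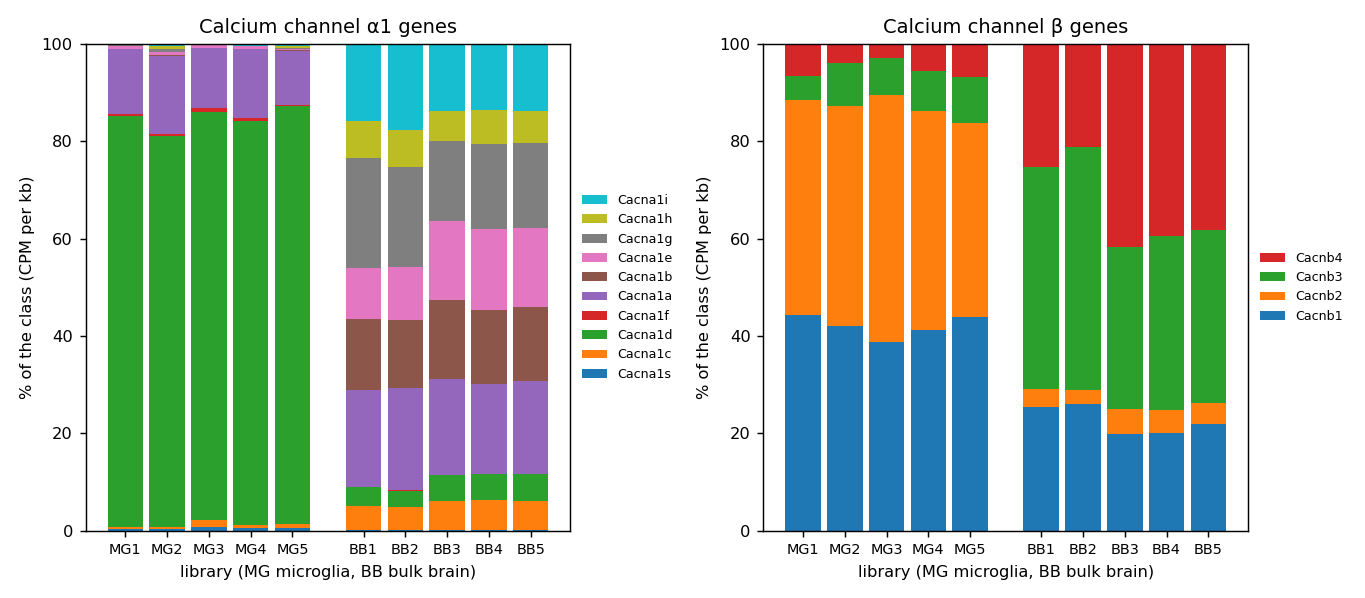
Share of each gene in the summed CPM per kb of the calcium channel α1 genes (left) and β genes (right), 1 bar per library, with MG for microglia and BB for bulk brain replicates 1 to 5. Cacna1d fills 80.3% to 86% of the α1 bars in microglia and 3.32% to 5.53% in bulk brain, and Cacnb1 and Cacnb2 fill most of the β bars in microglia.

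All 4 calcium channel β genes were lower in microglia, but 2 of them much less than the others. β subunits bind the pore inside the cell and promote its delivery to the membrane. Cacnb2, on chromosome 2 from 14607899 to 14992719 (plus strand, GRCm39), stood at 20.7, 21.6, 21.4, 21.8 and 20.8 CPM in microglia and at 39.8, 33.3, 56.1, 55.4 and 51.8 CPM in bulk brain. The microglia values were tightly grouped and all below the lowest bulk brain library, with a log2 difference of -1.15 ± 0.15 (SE, edgeR adjusted p = 1.7e-05). Cacnb1, the β gene best known from skeletal muscle, stood at 7.11, 6.86, 5.59, 6.84 and 7.80 CPM against 91.0, 96.6, 76.9, 83.3 and 92.1 CPM (log2 difference -3.68 ± 0.12 SE, edgeR adjusted p = 1.2e-10). Those groups did not overlap either.

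The remaining β genes are prominent in neurons. Cacnb4 had the largest fall of the class, from 179, 156, 318, 323 and 316 CPM in bulk brain to 2.07, 1.28, 0.848, 1.79 and 2.42 CPM in microglia (-7.27 ± 0.36 SE, edgeR adjusted p = 3.4e-09). Cacnb3 had the highest mean CPM per kb of the β genes in bulk brain, a rank that rested on replicates 1 and 2, since Cacnb4 was above it in replicates 3 to 5. It stood at 0.715, 1.28, 0.964, 1.23 and 1.46 CPM in microglia and at 144, 164, 114, 131 and 131 CPM in bulk brain (-6.92 ± 0.20 SE, edgeR adjusted p = 4.8e-11). Neither gene showed overlap between the groups. The log2 ratio of Cacnb2 to Cacnb4 within a library was 3.75 ± 0.62 in microglia and -2.41 ± 0.20 in bulk brain (SD), a difference of 6.16. This pair was also chosen after its values were seen. Its p = 0.0079 by the same exact permutation test (0.0079 adjusted) therefore adds no support either. Of the summed β CPM per kb, Cacnb1 and Cacnb2 held 42.0% ± 2.23 and 45.0% ± 3.84 in microglia and 22.7% ± 2.84 and 4.13% ± 0.74 in bulk brain (SD, n = 5).

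The α2δ and γ subunits had no such exception. All 4 α2δ genes, whose products anchor channels in the membrane and in the case of Cacna2d1 and Cacna2d2 bind gabapentin, were lower. Cacna2d1 stood at 0.278, 0.116, 0.308, 0.119 and 0.0834 CPM in microglia and at 135, 116, 244, 260 and 259 CPM in bulk brain, where its mean CPM per kb was the highest of the class, although Cacna2d3 was above it in replicates 1 and 2 (log2 difference -10.09 ± 0.41 SE, edgeR adjusted p = 7.4e-10). Cacna2d2 had 2, 3, 0, 2 and 0 counts in microglia against 58.0, 42.1, 99.8, 98.2 and 103 CPM in bulk brain (-10.39 ± 0.49 SE, edgeR adjusted p = 2.3e-09). Cacna2d3 and Cacna2d4 had log2 differences of -8.71 and -6.40. Together the 4 genes reached 0.21 to 0.69 CPM in microglia and 246 to 465 CPM in bulk brain. The microglia libraries thus held Cacna1d counts beside almost no α2δ counts.

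Among the 8 γ genes, all 6 that encode TARPs were lower. Cacng7 was the most abundant γ gene of bulk brain per unit of length, at 158, 159, 147, 159 and 157 CPM, and stood at 0.278, 0.543, 0.386, 0.159 and 0.208 CPM in microglia (log2 difference -8.93 ± 0.23 SE, edgeR adjusted p = 2.2e-11). Cacng2, which encodes stargazin, fell from 100 ± 6.32 CPM to 0.0958 ± 0.13 CPM (SD, n = 5). Cacng5 had 2 counts in microglia, both in replicate 2, against 35.2, 31.5, 39.5, 35.9 and 37.4 CPM in bulk brain, a ratio of 2254 (95% counting interval 624 to 18608). Cacng8, a TARP of hippocampal synapses, had the smallest fall (-6.39). Cacng1 and Cacng6, which do not encode TARPs, failed the filter on low counts, had no count in microglia and stood at 0.196 ± 0.19 and 1.05 ± 0.82 CPM in bulk brain (SD, n = 5). With 3 counts set as the floor of the microglia group, they were at least 8.47-fold and 45.1-fold lower. The 8 genes that form or serve AMPA receptors (Gria1 to Gria4, Cnih2, Cnih3, Shisa9 and Gsg1l) were all lower too (median log2 difference -10.32), with the receptor subunit gene Gria4 at 0.0633 ± 0.10 CPM against 184 ± 47.1 CPM.

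All 4 sodium channel β genes were lower in microglia. β subunits modulate the pore and act in cell adhesion. Scn4b had the largest fall, from 243, 208, 250, 241 and 261 CPM in bulk brain to 0.159, 0.504, 0.116, 0.239 and 0.292 CPM in microglia (-9.82 ± 0.27 SE, edgeR adjusted p = 3.1e-11). Scn2b and Scn3b had log2 differences of -9.24 and -8.64. In none of these 3 genes did the groups overlap.

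None of the 10 sodium channel α genes reached 1 CPM in microglia. Summed, they stood at 1.00 to 1.94 CPM in the microglia libraries and at 527 to 1409 CPM in bulk brain. Scn2a, which encodes Nav1.2 of axons and is among the main channels of excitatory neurons, had the highest mean CPM per kb of the α genes in bulk brain, although Scn8a was above it in replicate 2. It stood at 214, 161, 479, 488 and 485 CPM there and had 10, 13, 3, 2 and 0 counts in microglia (log2 difference -10.66 ± 0.64 SE, edgeR adjusted p = 1.8e-08). Scn1a, which encodes Nav1.1 of inhibitory interneurons, had the largest fall of all members (-11.42 ± 0.67 SE, edgeR adjusted p = 1.5e-08), with 5, 0, 0, 2 and 4 counts in microglia against 151, 87.9, 342, 342 and 330 CPM. Scn8a, for Nav1.6 of axon initial segments and nodes, stood at 0.333 ± 0.15 CPM against 377 ± 133 CPM (SD, n = 5). In each of these genes every microglia library lay far below bulk brain.

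The α genes that are minor in brain split further. Scn3a, Scn7a and Scn9a had log2 differences of -9.37, -6.82 and -7.86. Scn1a, Scn2a, Scn3a, Scn7a and Scn9a stand together on chromosome 2 between 65287462 and 66615258, and all 5 were lower. Scn11a, which encodes Nav1.9 of pain-sensing neurons, held 4, 16, 13, 16 and 11 counts in microglia and 0.348 ± 0.16 CPM in bulk brain against 0.475 ± 0.19 CPM in microglia (log2 difference 0.44, edgeR adjusted p = 0.36), with overlapping groups. Scn10a and Scn4a failed the filter on low counts, Scn10a with no count in microglia and 0.258 ± 0.16 CPM in bulk brain (SD, n = 5), and Scn4a with 10 counts over the microglia and 16 over the bulk brain libraries.

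Neuron marker transcripts were counted at a low level in the sorted cells, and most members tested stood within or below the range of all but 1 of these markers. The part of neuronal RNA in the members' values was not tested. All 15 neuron markers of a list without channel genes were lower in microglia. They summed to 21.8 to 47.6 CPM in the microglia libraries and 7679 to 8908 CPM in bulk brain. As a percentage of the bulk brain mean, the markers ranged from 0.0394% (Syt1) through a median of 0.131% to 0.952% (Camk2a) and 11.03% (Elavl4), and none was at 0. Of the 36 members tested, 25 stood at or below 0.952%, and those 25 summed to 6.05 to 9.46 CPM in the microglia libraries. Between that value and 11.03% were 5 members, Cacna1c (1.32%), Cacng8 (1.18%), Cacna2d4 (1.06%), Cacna1a (7.20%) and Cacnb1 (7.78%). Among the members above 11.03%, not all of which are reported here, were Cacnb2 (45.0%), Cacna1d (175%) and 3 genes that were low in both groups (Cacna1s, Cacna1f and Scn11a). Microglia replicate 2 had the highest neuron marker sum, and it was also the highest library for the sums of the T-type genes (1.47 CPM against 0.0771 to 0.834 in the others) and of the γ genes (2.02 against 0.694 to 1.00). The sodium channel α sum was also highest in replicate 2 (1.94 CPM), as was Cacna1a (16.7 CPM). For the α2δ genes, replicate 3 was the highest (0.694 CPM, with replicate 2 at 0.582). Replicate 5 had the second highest neuron marker sum (40.1 CPM) but the lowest sums of the sodium channel α genes (1.00 CPM) and the α2δ genes (0.208 CPM). Replicate 4 had the lowest neuron marker sum and the second highest sodium channel α sum (1.67 CPM). Cacna1d and Cacnb2 stood at 95.3 to 109 and 20.7 to 21.8 CPM in the same libraries.

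**Figure D3:**
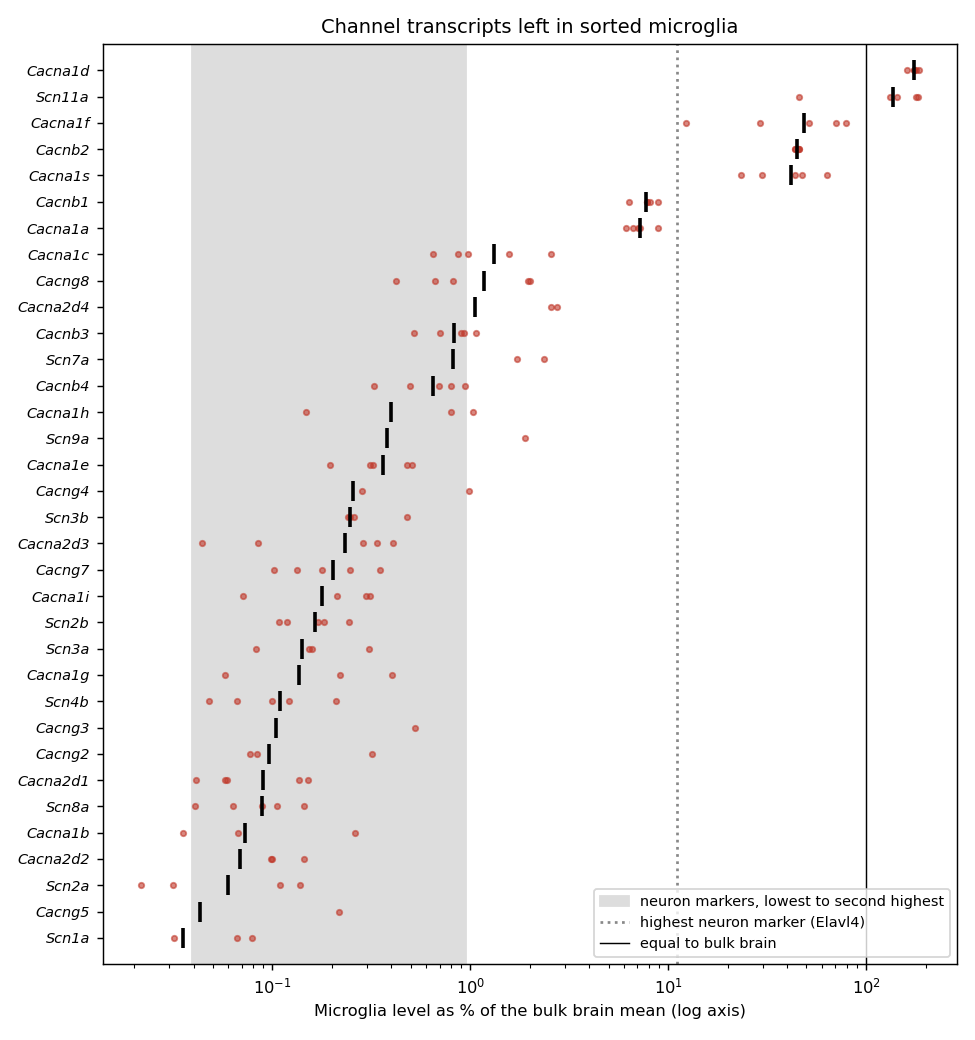
Microglia level of 34 tested members as a percentage of its bulk brain mean on a log axis, with 1 red point per microglia library above 0 and a black bar for the mean. The grey band spans 0.0394% to 0.952%, the lowest to the second highest neuron marker, and the dotted line is Elavl4 at 11.03%.

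The sorted cells carried the markers of their label, along with low levels of other cell types. All 10 microglia markers were higher in the sorted cells (32928 to 34148 CPM summed, against 241 to 279 CPM in bulk brain), as were all 5 markers of border-associated macrophages (436 to 572 CPM against 8.75 to 10.8 CPM). Of 7 blood leukocyte markers, 3 were tested and higher, and the sum was 31.0 to 41.0 CPM against 0.468 to 1.31 CPM. All markers of mural cells (6 genes, 8.87 to 22.2 CPM against 200 to 243 CPM), oligodendrocyte precursors (4 genes, 1.62 to 3.53 CPM against 84.9 to 155 CPM), oligodendrocytes (6 genes, 143 to 245 CPM against 5548 to 7531 CPM) and astrocytes (7 genes, 133 to 160 CPM against 2295 to 3760 CPM) were lower. Of 5 endothelial markers 4 were lower and 1 higher, and they summed to 56.7 to 81.7 CPM against 197 to 257 CPM. No marker of these lists was at 0 in microglia. The part of border macrophages and leukocytes in the levels of Cacna1d, Cacnb2, Cacna1a and Cacnb1 was not tested.

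Within bulk brain, replicates 1 and 2 both lay below all of replicates 3 to 5 for 24 of the 40 members and above them for 5, beside 34.1% and 35% of all genes tested. The 24 were all tested genes, but the 5 include Cacng1 and Cacng6, which failed the filter on low counts. All 9 α1 genes other than Cacna1s had both replicates 1 and 2 below the lowest of replicates 3 to 5, as did 7 of the 10 sodium channel α genes. Cacna1e, the longest member at 25.2 kb, stood at 144 and 124 CPM in replicates 1 and 2 and at 383 to 419 CPM in replicates 3 to 5. Cacng4, at 3.58 kb, went the other way, with means of 70.0 CPM in replicates 1 and 2 and 51.1 CPM in replicates 3 to 5. Across 31 members with at least 500 counts in bulk brain, log2 length and the log2 difference of replicates 1 and 2 from replicates 3 to 5 had a Pearson r of -0.82 and a Spearman rho of -0.81. These are correlations across genes that share the same libraries, and across 13319 genes with as many counts Spearman's rho was -0.68. The folds of long members thus moved with the choice of bulk brain libraries, as for Cacna1d, whose bulk brain mean was 27.6 CPM in replicates 1 and 2 and 80.0 CPM in replicates 3 to 5. The cause was not tested.

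**Figure D4:**
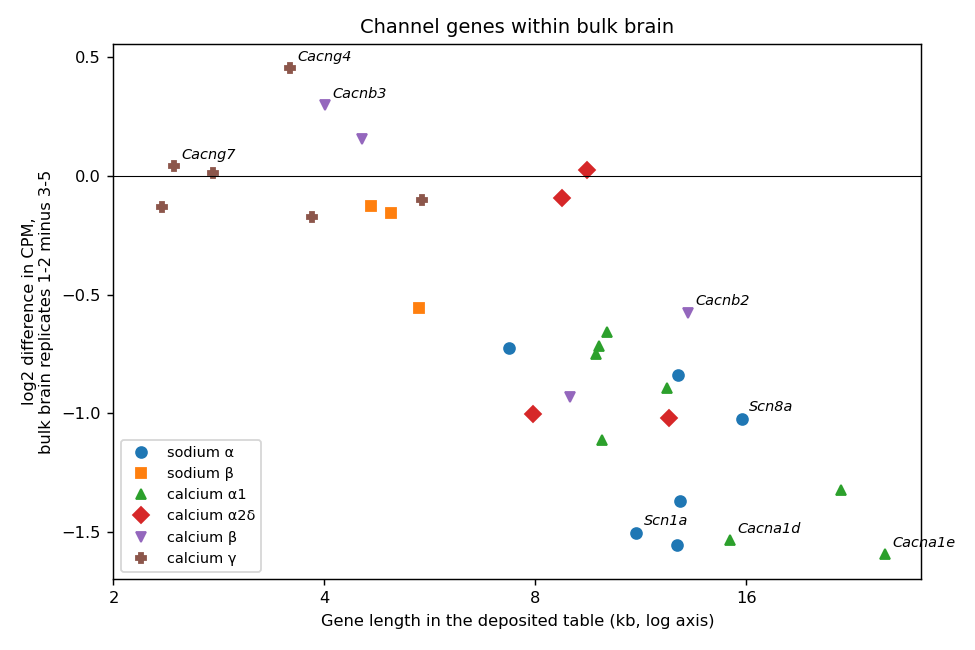
Log2 difference in CPM between bulk brain replicates 1 and 2 and replicates 3 to 5 against gene length in kb on a log axis, for 31 channel genes with at least 500 bulk brain counts, by subunit class. Long genes such as Cacna1e and Cacna1d lie at -1.60 and -1.54, and Cacng4 lies highest at 0.45.

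Genes that work with the channels were taken from lists chosen beside the members. Their counts of calls stand beside shares of 43.9% lower and 37.2% higher over all genes tested. Of 17 genes that anchor or modulate sodium channels, 15 were tested, of which 13 were lower, 1 higher and 1 not past the threshold (median log2 difference -4.42). The neuronal adhesion gene Nrcam had the largest fall (0.164 ± 0.15 CPM against 327 ± 122 CPM). Of 23 partners of calcium channels, 20 were lower, 2 higher and 1 not past the threshold (median -6.31). Rimbp2, which ties channels to release sites, stood at 0.0485 ± 0.072 CPM against 95.1 ± 28.1 CPM. The 2 that were higher encode small GTPases of the RGK family, which inhibit high-voltage-activated calcium channels by way of the β subunit. Gem stood at 144 ± 27.5 CPM against 2.05 ± 0.75 CPM (log2 difference 6.14, edgeR adjusted p = 1.2e-09), and Rrad at 12.3 ± 2.75 CPM against 1.59 ± 0.66 CPM (2.95, edgeR adjusted p = 2.4e-06), while the RGK genes Rem1 and Rem2 were lower (-1.04 and -8.87). The call of Rem1 (edgeR adjusted p = 0.044) was lost under 12 of 20 alternatives (0.012 to 0.19). The part of cell sorting in the levels of Gem and Rrad was not tested.

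Other routes of cation entry showed both directions. All 5 genes of the sodium leak channel complex were lower, with the pore gene Nalcn at 0.0636 ± 0.087 CPM against 135 ± 47.4 CPM. The lysosomal two-pore channel genes Tpcn1 and Tpcn2 were higher, at 168 ± 5.59 CPM against 47.7 ± 8.54 CPM and at 43.0 ± 1.88 CPM against 6.79 ± 1.34 CPM (log2 differences 1.81 and 2.66, edgeR adjusted p = 6.5e-08 and 8.4e-09). Of 25 genes for calcium stores, store-operated entry and extrusion, 8 rose and 15 were lower, with 2 left uncalled (median -1.14). Over all genes tested, 37.2% were higher and 43.9% lower, so calls in both directions are common in this comparison. The store-operated pore gene Orai1 had the largest rise of these 25 (77.1 ± 3.17 CPM against 6.17 ± 1.02 CPM, log2 difference 3.64). Orai2, Orai3 and the inositol trisphosphate receptor genes Itpr2 and Itpr3 were higher as well (1.07, 1.54, 3.44 and 2.17). The third receptor gene of that family, Itpr1, was lower (27.6 ± 2.93 CPM against 998 ± 416 CPM, log2 difference -5.17). The store sensor genes Stim1 and Stim2 were lower (-0.51 and -1.14), as were the 3 ryanodine receptor genes. Slc8a3, a sodium-calcium exchanger gene, was without a count in the microglia libraries, at least 1651-fold lower by the group floor of 3 counts. Its relative Slc8a1 was near equal on average (313 ± 4.41 CPM against 303 ± 161 CPM, log2 difference 0.05, edgeR adjusted p = 0.90), and the call went both ways with the bulk brain libraries used. It was -0.58 against bulk brain replicates 3 to 5 alone (edgeR adjusted p = 7.5e-08) and 1.21 against replicates 1 and 2 alone (edgeR adjusted p = 1.8e-06), with an adjusted p of up to 0.96 over the alternatives.

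Some members share ground with other genes, and no strand setting for the counting is known from the sources used here. The gene span of Cacna1d overlaps that of the decapping gene Dcp1a on the opposite strand, which was also higher in microglia (72.7 ± 2.52 CPM against 25.8 ± 5.98 CPM), and that of Chdh (0.341 ± 0.11 CPM against 6.40 ± 2.98 CPM). In a GENCODE vM21 annotation, of another build, Cacna1d shared no exon base with Dcp1a and 589 of its 12621 exon bases with Chdh. Gene counts also do not show whether the whole Cacna1d transcript or a part of it was sequenced.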

How the data were processed

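Poly-A RNA was sequenced from 5 samples of sorted microglia and 5 of bulk brain, in 1 batch by the labels. The deposited values are counts per gene and library. Per the submitters' processing notes the build was GRCm39 and the tools were CASAVA, HISAT2 2.2.1 and featureCounts 2.0, with roles not stated, and how strand and read pairs were treated is not given in the sources used here. Members and lists were chosen with earlier results of these data known. Counts were tested with edgeR 4.0.16 (R 4.3.3, TMM scaling, filterByExpr, quasi-likelihood test over the 10 libraries, Benjamini-Hochberg adjustment over 18969 genes, threshold 0.05). Levels are TMM-scaled CPM, and levels of different genes are compared per kb of the deposited gene length. Sums over genes and the share of 4 calcium channel genes are in CPM. SE is the size of the log2 difference over the square root of F. Values in every library are given for members with at least 1 CPM in microglia, any called higher, and per class the member highest in bulk brain per kb and the one with the largest fall. Members at 0, untested or not past the threshold are named, and of each partner list the largest rise and fall at 5 CPM or more. Other genes named for their role or family were added after their values were seen. A few genes are not reported here; they stay in the fit and in the counts of members and partners, and out of the figures, the sodium channel sum and the length correlation of the members. The script was tested on simulated data. A floor of 3 counts in a single library was 0.116 to 0.125 CPM in microglia and 0.0821 to 0.109 CPM in bulk brain. The fold bounds for genes at 0 set 3 counts over the whole microglia group instead. In all 10 libraries more genes held 2 counts than 1, by 1.28 to 1.45 times, so counting intervals may be too narrow. They and the floors cover counting error only. The 20 alternatives were 3 other scalings, no filter, a filter of 10 counts in 5 libraries, DESeq2 1.42.0, limma-voom (limma 3.58.1), a replicate block, each of the 10 libraries left out, and bulk brain replicates 1 and 2 or 3 to 5 alone.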

Additional observations from a re-analysis of the deposited data

Results flagged for a closer look

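In 9 of 76 groups of 5 libraries examined for the members, 1 library stood apart from the other 4 by more than Dixon's 95% critical value. Chance gives this in about 1 of 20 groups of normally distributed values. Low counts are not such values, and 1 library with counts among 4 at 0 is always flagged. The number of cases therefore cannot be set against that rate. The microglia cases, 7 in number, all rested on low counts. Microglia replicate 2 was the highest for Cacna1b (0.310 CPM, next 0.0795), Cacng4 (0.582 CPM, next 0.167) and Cacng5 (0.0776 CPM, the others 0), and it also had the highest neuron marker sum, 47.6 CPM. Replicate 4 was the highest for Scn4a (0.318 CPM), replicate 3 for Scn9a (0.193 CPM), replicate 1 for Cacng2 (0.318 CPM) and replicate 5 for Cacng3 (0.292 CPM). In bulk brain, replicate 2 was the highest for Scn4a (0.231 CPM, next 0.0826) and replicate 3 the lowest for the TARP gene Cacng7 (147 CPM, next 157). The part of neuronal RNA in the values of replicate 2 was not tested.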

How the results depend on the processing

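Of the 33 lower calls among the members, 32 were kept under all 20 alternatives, and that of Cacna1s was lost against bulk brain replicates 1 and 2 alone. The number of members called higher fell from 1 to 0 with median-of-ratios size factors, library size alone, no filter on low counts and DESeq2, where 0, 0, 1 and 0 members were higher at an unadjusted p under the same threshold, and it was 0 to 1 with single libraries left out. The calcium channel sum, 6.29% of bulk brain, was 5.57% with median-of-ratios size factors, 5.55% with library size alone and 6.62% with upper-quartile scaling. It was 4.83% against bulk brain replicates 3 to 5, 7.99% against replicates 1 and 2, and 5.33% to 6.44% with single libraries left out. The sum of 12 sodium channel genes, 0.138%, was 0.102% and 0.191% against the same subsets of bulk brain, and 0.115% to 0.150% with single libraries left out. The log2 differences of Gpd1l and Slc8a1 (0.14 and 0.05, not past the threshold) turned to -0.10 and -0.58 against bulk brain replicates 3 to 5, both past it. That of Slc8a1 was 1.21 against replicates 1 and 2, and that of Gpd1l was 0.21 with upper-quartile scaling, also past it. The cause was not tested. Same-numbered samples did not deviate together (correlations -0.021 to 0.010). The labels do not say whether they share an animal, and these correlations between unlike preparations cannot decide it. A replicate block gave 1 member higher and 33 lower, 13 partner genes higher and 60 lower, and 6858 genes higher and 8037 lower over all. The within-library ratios of 2 member pairs, an analysis chosen after seeing the data, kept their direction under all 11 alternatives. Members under about 0.1 CPM in microglia stand below the floor of 3 counts in a single library (0.116 to 0.125 CPM). Members not far above 0.1 CPM stand near it.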
